A study of Mus musculus with 2 samples.

Results

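Rsad2 Ifit type I interferon macrophages are *Lyz2*-bearing cells of mouse tumors in which transcripts of *Ifit1*, *Ifit2*, *Ifit3* and *Rsad2* were found. They were chosen by those transcripts in a table of UMIs, the molecular barcodes that mark each captured RNA molecule. A cell needed at least 10 Sample Tag reads with at least 75% of them on the tag of its group, 150 to 5000 genes and at most 20% of its UMIs on mitochondrial genes. It then needed at least 5 *Lyz2* UMIs, no UMI of *Cd3d*, *Cd3e* or *Cd3g*, and fewer than 3 UMIs of *Cbr2*, *Folr2* and *Fcrls* together. The sum of *Ifit1*, *Ifit2*, *Ifit3* and *Rsad2* had to reach 3 UMIs and 5 per 10000 UMIs of the cell. Of the 20726 cells in the table, 18960 had a tag call, 9911 of those lay within the limits, 8175 of those were macrophages by *Lyz2*, and 321 met the whole rule (1.55% of the table).

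The cells came from tumors of MC38, a mouse colon carcinoma line, implanted under the skin of female C57BL/6 mice that were 6 to 8 weeks old. The control group was given vehicle, and the telmisartan-treated group was given 5 mg/kg telmisartan, a blocker of the angiotensin II type 1 receptor, each day by gavage. Tumors were taken on day 13, and live CD45+ leukocytes were sorted and pooled over 5 mice of each group. Sample Tag 1 was put on the control pool and tag 2 on the telmisartan pool, and both were captured together on the BD Rhapsody system, which isolates cells in microwells. With 1 pool per group there is no replicate, so no test was made, and an effect of treatment cannot be told apart from variation among animals or from how each pool was handled. Intervals given after a value are exact 95% intervals for counting error only (Poisson for a sum, Clopper-Pearson for a share, conditional binomial for a log2 ratio).

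There were 134 members in the control group, with 1078217 UMIs in all and a median of 7411 per cell, and 187 in the telmisartan-treated group, with 1191790 UMIs and a median of 5943. The members had a median of 2122 genes and 6.86% mitochondrial UMIs. They were compared with the 6808 other macrophages, which met every condition other than that on the interferon genes and had a median of 8227 UMIs. Levels are given as CPM, the UMIs of a gene per 1000000 UMIs summed over the cells of a class.

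Type I interferons are secreted when a cell senses foreign or misplaced nucleic acid. They bind a receptor made of IFNAR1 and IFNAR2, whose kinases activate STAT2, and this is joined by IRF9 in a complex that binds the interferon-stimulated response element of many target genes. Macrophages with such transcripts are a known state in tumors, and interferon-gamma, secreted by T and NK cells, acts through a receptor of its own on an overlapping set of targets.

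The label was checked against markers. Of the 5 markers of type I interferon macrophages, *Rsad2*, *Ifit1* and *Ifit3* were used by the rule, so that their detection follows from it, while *Slfn4* and *Isg15* were not used and were detected. All 11 markers of macrophages were detected in the members, at a summed 8355 CPM against 8197 CPM in other macrophages. *Cd14*, which encodes a lipopolysaccharide co-receptor, was the most abundant of the macrophage markers at 2410.1 CPM. The 7 monocyte markers held 4934 UMIs and were at a summed 2174 CPM in members against 1416 CPM in other macrophages. The markers of each other cell type held at most 405 UMIs in members. Several sums were nevertheless higher in members than in other macrophages: those of plasmacytoid dendritic cells (178 and 117 CPM), neutrophils (142 and 101 CPM), NK cells (51.5 and 18.4 CPM), endothelial cells (32.6 and 20.002 CPM), fibroblasts (17.6 and 9.04 CPM) and B cells (3.96 and 2.37 CPM). The 9 T cell markers held 16 UMIs in all, with *Cd3d*, *Cd3e* and *Cd3g* at 0 by the rule, and the 5 B cell markers held 9. Of the 405 UMIs on the 6 markers of plasmacytoid dendritic cells, which are potent makers of type I interferon, 401 were *Tcf4*, and *Siglech* was at 0. The 7 neutrophil markers held 323 UMIs, led by *Mmp8* with 150, and the 5 NK cell markers held 117, of which *Klrk1* gave 115. The 10 dendritic cell markers held 117 UMIs with *Xcr1* at 0, and those of mast cells and basophils held 0. The 5 tumor epithelial markers held 65 UMIs, of which *Cdh1* gave 57, with the keratins *Krt8*, *Krt18* and *Krt19* at 0. The 5 fibroblast markers held 40 UMIs, the 4 endothelial markers 74 and the 4 erythroid markers 3.

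The members made up 3.10% (2.60 to 3.66) of macrophages in the control group and 4.85% (4.20 to 5.58) in the telmisartan-treated group. The share was thus 1.56 times as high with telmisartan (1.25 to 1.97), and it lay between 1.47 and 1.71 times under the alternatives tried. The rule reads UMIs of a cell, and the median depth of macrophages differed between the groups, at 9784 UMIs in control and 7387.5 with telmisartan. When cells with at least 3000 UMIs were thinned to 3000 before the rule was applied, the shares were 2.35% and 3.52%. The 1579 shallower cells within the limits were left out. Among other macrophages these were 284 of 3605 in control and 374 of 3203 with telmisartan.

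The 4 genes of the rule encode antiviral proteins, RSAD2 (viperin), which makes a chain-terminating nucleotide, and the IFIT proteins, which bind foreign RNA. Their sum in a member had a median of 8 UMIs and ranged from 3 to 175. Per 10000 UMIs the median was 13.5 in control, with a highest value of 98.5, and 16.5 with telmisartan, with a highest value of 240.3. Over 20 per 10000 there were 40 control members (29.9%) and 82 telmisartan members (43.9%). The rule used this sum and each group is 1 pool, so these values describe the cells drawn, and nothing about treatment is read from them.

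All 4 rule genes were found in 92 members, and 85 members held UMIs of only 1 of them. *Rsad2* was the most abundant, with 2881 UMIs. It stood at 937 CPM in control and 1569.9 CPM with telmisartan. At least 1 *Rsad2* UMI was seen in 86.3% of members (82.0 to 89.9), in 5.76% of other macrophages, and in 9.69% of 196 cells with at least 3 CD3 UMIs, T cells whose median depth was 5596.5 UMIs against 6440 in members. Thinned to 3000 UMIs, with 40 shallower members left out (14 control, 26 telmisartan), the shares were 77.2%, 2.60% and 7.69%. The rule used *Rsad2*, so the shares in members and other macrophages describe how those classes were drawn and are not a finding. The T cells were drawn by CD3 UMIs, and the source of their *Rsad2* UMIs was not tested.

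At the border of the rule the cells graded into each other. The 34 members with a sum of exactly 3 UMIs had 383 CPM of *Isg15*, a ubiquitin-like interferon target that the rule did not use. The 26 members at 5 to 6 per 10000 had 179 CPM. Just outside, 171 other macrophages with a sum of 2 UMIs had 159 CPM, and 86 with at least 3 UMIs but under 5 per 10000 had 127 CPM. In the 5996 other macrophages with none of the 4 transcripts *Isg15* stood at 27.1 CPM. Of the 171 cells, 28 reached 5 per 10000 and missed the rule on UMIs alone. Their median depth was 2601.5 UMIs, and their *Isg15* was at 494 CPM, above both sets of low members just given.

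**Figure D1:**
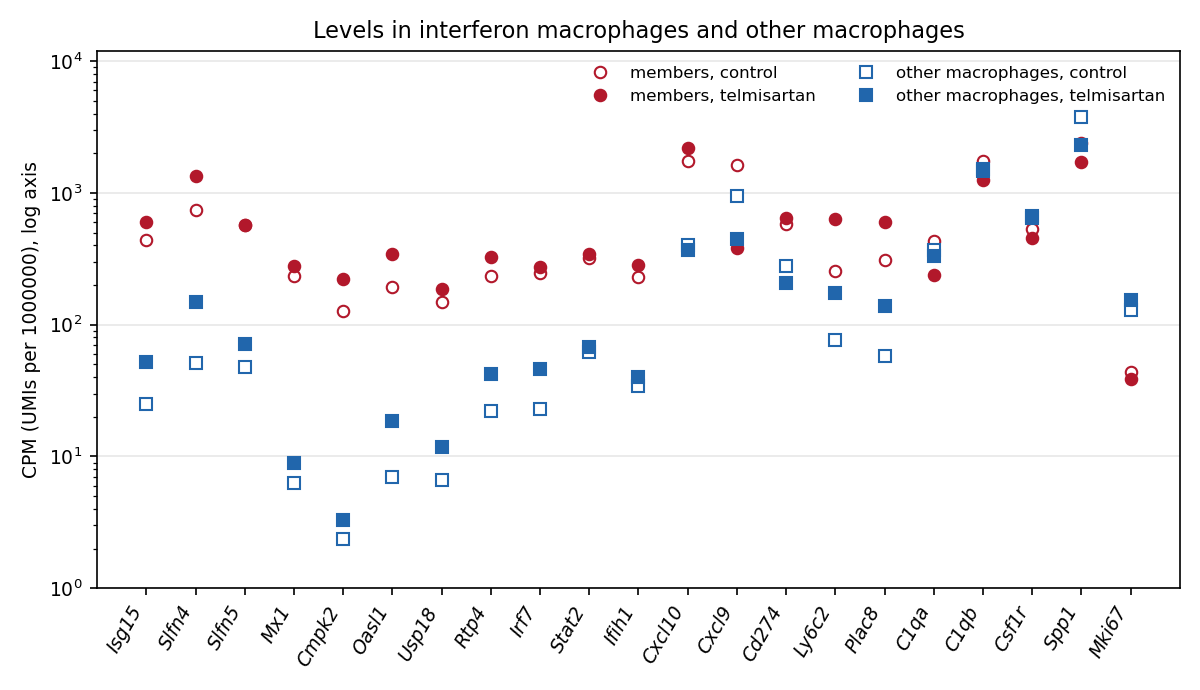
Level of 21 genes outside the rule in members (circles) and other macrophages (squares), control group open and telmisartan-treated group filled, as CPM on a log axis. *Isg15* stood at 436 and 597 CPM in control and telmisartan members against 24.9 and 51.7 CPM in other macrophages, whereas *C1qb* lay between 1261 and 1743 CPM in all 4 sums.

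Against other macrophages, 412 of 10958 genes with at least 100 UMIs were at least 2-fold higher in members (3.76%) and 591 were at least 2-fold lower (5.39%), with a median log2 ratio of −0.13. These ratios are a description, since the rule used the same cells, and nothing is read from the counts. Without scaling for depth they shift by −0.34, so that a positive ratio smaller than this has the opposite sign. Of the 50 type I interferon targets listed outside the rule, 48 were in the table, 46 of them at least 2-fold higher and all 48 above 0, with a median log2 ratio of 2.45. Their summed level was 16444 CPM in members and 4742 CPM in other macrophages (log2 ratio 1.79, 1.78 to 1.81). A member held UMIs of a median of 27 of these genes and another macrophage 12. Thinned to 3000 UMIs these medians were 20 and 6.

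*Ifit1bl1* and *Ifit3b*, further members of the IFIT family, had log2 ratios of 7.58 and 7.39, though reads of these near copies of *Ifit1* and *Ifit3* may have been split between the genes. *Cmpk2*, a mitochondrial nucleotide kinase gene that neighbors *Rsad2*, was at 176 CPM in members and 2.73 CPM in others (6.01, 5.75 to 6.28). *Mx1*, which encodes an antiviral GTPase, was at 258 and 7.43 CPM (5.12, 4.94 to 5.30). *Oasl1*, of the oligoadenylate synthetase family, was at 273 and 11.8 CPM (4.53, 4.38 to 4.69). A brake on the pathway was among the high genes too. *Usp18*, which encodes a protease that removes ISG15 and binds IFNAR2, was at 168 and 8.81 CPM (4.26, 4.06 to 4.45). *Isg15* itself was at 521 and 35.9 CPM (3.86, 3.75 to 3.96). *Slfn4*, a myeloid gene of the Schlafen family, was at 1059 and 91.7 CPM (3.53, 3.46 to 3.60). Among the other genes with the largest ratios were *Ifi44* (4.31), *Slfn5* (3.31), *Rtp4* (3.22), *Isg20* (3.21) and the nucleic acid binding *Ifi208* (4.99), *Ifi206* (3.64) and *Ifi213* (3.56). *Ly6e* and *Pnpt1* were the 2 of the 48 below 2-fold, at 0.42 and 0.90. *Retnla*, at 4.66, rested on 1 control cell, which held all of its 138 UMIs and is not among the members when at least 10 *Lyz2* UMIs are asked for.

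Several of these genes sit side by side in the genome (positions from GENCODE M21 on GRCm38). *Ifit2* (chr19:34550694-34576419), *Ifit3* (chr19:34583531-34588731), *Ifit1bl1* (chr19:34592891-34601956), *Ifit3b* (chr19:34607970-34613401) and *Ifit1* (chr19:34640871-34650009) form a cluster. *Rsad2* (chr12:26442746-26456452, minus strand) and *Cmpk2* (chr12:26469204-26479837, plus strand) lie next to each other and are read in opposite directions. *Slfn5* (chr11:82951349-82964840) and *Slfn4* (chr11:83175186-83190216) belong to the Schlafen cluster, and *Ifi213* (chr1:173566283-173599274) and *Ifi208* (chr1:173673675-173698395) to the *Ifi200* cluster, while *Isg15* lies apart at chr4:156199424-156200818.

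The promoters were searched, on both strands, for GAAANNGAA, the core of the interferon-stimulated response element, and for TTCNNNGAA, the gamma-activated site found in many interferon-gamma targets. Promoter sequences of RefSeq on GRCm38.p6, from 250 bases before to 50 after the start of a gene, were matched by symbol to 38 of the 48 listed targets. The response element core was in 18 of these 38 (47.4%, 31.0 to 64.2) and in 9.57% of the 18002 promoters of genes in the table. Of the genes at least 2-fold higher in members it was in 30.2% of 311 with a promoter, against 9.39% of 8634 for all compared genes. The gamma-activated site was in 15.8% of the 38 and in 9.09% of all. Neither motif was particular to this list: among 13 promoters of the genes listed as interferon-gamma targets, the core was in 11 (84.6%, 54.6 to 98.1) and the gamma-activated site in 8 (61.5%, 31.6 to 86.1). The following stretches surround the matches in promoters of marker genes, printed from 5′ to 3′ on the strand of the gene with matches of the response element core in capitals.
*Rsad2* (chr12:26456523-26456611, minus strand): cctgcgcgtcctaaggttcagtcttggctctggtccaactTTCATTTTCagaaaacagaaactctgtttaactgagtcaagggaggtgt
*Ifit1* (chr19:34640740-34640853, plus strand): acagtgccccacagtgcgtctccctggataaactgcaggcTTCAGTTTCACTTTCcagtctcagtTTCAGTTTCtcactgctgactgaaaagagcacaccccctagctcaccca
*Ifit3* (chr19:34583334-34583475, plus strand): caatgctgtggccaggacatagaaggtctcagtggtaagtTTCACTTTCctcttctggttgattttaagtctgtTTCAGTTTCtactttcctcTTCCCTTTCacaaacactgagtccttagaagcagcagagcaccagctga
*Isg15* (chr4:156200836-156200936, minus strand): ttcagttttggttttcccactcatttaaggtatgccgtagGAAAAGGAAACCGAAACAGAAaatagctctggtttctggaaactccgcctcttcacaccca
The *Ifit1*, *Ifit3* and *Isg15* stretches each hold 3 matches, some of which overlap, and that of *Rsad2* holds 1. In the promoter of *Slfn4* neither motif was found. A match describes letters of the reference and was not tested as a binding site.

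The ligands were hardly seen. Of 21 interferon genes listed, 7 were in the table, and the members held 3 UMIs of them in all, 2 of *Ifnb1* and 1 of *Ifng*. *Ifnb1*, the interferon that macrophages make first, was thus seen in 2 of 321 members (0.623%, 0.0755 to 2.23). It was seen in 5 of 6808 other macrophages (0.0734%, 0.0239 to 0.171) and in 1 of 196 T cells (0.510%, 0.0129 to 2.81). Whether the share in members exceeds background was not tested. *Ifna4* and *Ifna5* were at 0. The angiotensin receptor genes *Agtr1a*, *Agtr1b* and *Agtr2* and *Ace* were also at 0 in members, and *Pparg*, which encodes a nuclear receptor that telmisartan can activate, had 9 UMIs.

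Of 18 receptor and signal genes, 6 were at least 2-fold higher in members and 0 lower, with a median log2 ratio of 0.35. The receptor genes themselves were near the level of other macrophages. *Ifnar1* was at 141 CPM in members and 108 CPM in others (0.38, 0.21 to 0.54), and the interferon-gamma receptor gene *Ifngr1* was at 133 and 187 CPM (−0.49, −0.66 to −0.32). The genes downstream that are themselves interferon targets were higher. *Irf7*, which encodes the factor that amplifies interferon-alpha genes, was at 263 and 32.5 CPM (3.02, 2.88 to 3.15). *Stat2* was at 333 and 64.4 CPM (2.37, 2.26 to 2.48). *Irf9*, *Irf1* and the feedback inhibitor *Socs1* had log2 ratios of 1.04, 1.04 and 1.44.

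Among the nucleic acid sensors 6 of 12 were at least 2-fold higher and 0 lower. *Ddx58*, which encodes the RNA sensor RIG-I, was at 168 CPM in members and 21.4 CPM in others (2.98, 2.81 to 3.14). *Ifih1*, for the RNA sensor MDA5, was at 259 and 36.6 CPM (2.82, 2.69 to 2.95). *Zbp1*, for a sensor of Z-form nucleic acid, was at 156 and 43.6 CPM (1.84, 1.68 to 2.00). The adaptors did not share this: *Mavs*, through which the RNA sensors signal, had a log2 ratio of −0.23, and *Tmem173*, which encodes STING, of 0.01.

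Of 17 genes known best as interferon-gamma targets, 13 were at least 2-fold higher and 0 lower, with a median of 1.70. They include GTPase genes such as *Irgm1* (231 and 49.3 CPM in members and others, 2.23, 2.09 to 2.36) and *Gbp5* (169 and 40.7 CPM, 2.06, 1.90 to 2.21). *Cxcl9*, the chemokine gene most specific to interferon-gamma, was at 970.5 CPM in members and 742 CPM in others (0.39, 0.33 to 0.45) over both groups. The order differed by group: members were higher than others in control (1617 and 946 CPM) and lower with telmisartan (385 and 451 CPM). *Ciita*, the master regulator of MHC class II, was at 0.20. Genes of antigen presentation split likewise. All 16 MHC class I genes listed were above 0, though *H2-D1*, *Psme1* and *Psme2* were below 0 unscaled, and 2 were at least 2-fold higher (*Nlrc5* 1.44 and *H2-T23* 1.07), with a median of 0.56. None of the 6 MHC class II genes reached 2-fold, and their median was 0.15, with a summed level of 15831 CPM in members and 14071 CPM in others, a log2 ratio of 0.17 that is −0.17 when UMIs per cell are taken unscaled.

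Of 19 chemokine genes 4 were at least 2-fold higher and 1 lower. *Cxcl10*, which attracts T cells through CXCR3, was the most abundant of the 4 at 1979 CPM in members and 391 CPM in others (2.34, 2.29 to 2.39). *Ccl5* and *Ccl4* had ratios of 1.82 and 1.48. The fourth was the platelet-type *Ppbp* (2.37), with 73.7% of its 137 UMIs in 1 cell, and the lower gene was *Ccl22* (−1.49, 30 UMIs in members). That ratio turns to 0.40 when the interferon condition is loosened to at least 2 UMIs and 3 per 10000. Of 13 cytokine genes 8 were at least 2-fold higher and 0 lower, while their sum had a log2 ratio of 0.21 that is −0.13 unscaled. *Tnfsf10*, which encodes the death ligand TRAIL, had the largest ratio (4.03, 3.49 to 4.56, 50 UMIs in members). *Il15*, a survival factor of NK and memory T cells, was at 48.5 and 11.7 CPM (2.05, 1.74 to 2.34). *Il1b* was abundant at about the same level in both, 3566 and 3379 CPM.

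Among 7 checkpoint ligand genes, *Cd274*, for PD-L1, and *Lgals9*, for galectin-9, were the 2 at least 2-fold higher. *Cd274* was at 614 CPM in members and 250.2 CPM in others (1.30, 1.22 to 1.37). Of 10 cell death genes 2 were at least 2-fold higher, *Mlkl*, the executioner of necroptosis (1.32), and *Casp4*, a caspase activated by cytosolic lipopolysaccharide (1.12).

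Of 10 monocyte genes 3 were at least 2-fold higher, 0 lower and 8 above 0 (median 0.35), while their sum was lower in members (3684 and 4225 CPM, log2 ratio −0.20, −0.23 to −0.17). *Plac8* was at 463 CPM in members and 91.1 CPM in others (2.34, 2.25 to 2.44). *Ly6c2*, which encodes the surface antigen of inflammatory monocytes, was at 454 and 117 CPM (1.96, 1.86 to 2.05). The 2 below 0 were *Ccr2*, the receptor by which monocytes leave the marrow (−0.39), and *Fn1* (−0.91). Of 18 tumor macrophage genes 2 were at least 2-fold higher and 0 lower. These were *Fcgr1*, a high-affinity antibody receptor gene that interferons induce (1.21), and *Gpnmb* (1.16, 36 cells). *Spp1*, for osteopontin, was at 2039.6 and 3164 CPM (−0.63, −0.68 to −0.59).

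Genes of cell division were lower in members. Of 10 mitosis genes 9 were at least 2-fold lower and 0 higher, with a summed 176 CPM against 532 CPM (log2 ratio −1.60, −1.74 to −1.45). *Mki67* was at 41.0 CPM in members and 140.4 CPM in others (−1.78, −2.09 to −1.48), and 10.6% of members had a UMI of it against 19.9% of other macrophages, or 4.98% and 13.7% at 3000 UMIs per cell. In the T cells, which divide as well, these shares were 29.1% and 23.8%. Of 12 DNA replication genes 6 were at least 2-fold lower and 0 higher (median −1.07). The 10 smallest ratios of all compared genes rested on 1 to 6 UMIs in members each, with *E2f7*, which encodes a repressor of the cell cycle, the lowest on 1 UMI (−3.79, −9.10 to −1.30). Of 12 hypoxia genes none passed 2-fold in either direction (median 0.35; sum 0.23, or −0.10 unscaled), and of 14 immediate-early and heat shock genes *Egr1* alone was at least 2-fold higher (1.07), a group that tissue dissociation can induce.

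Between the groups, 70 of 3464 genes with at least 100 UMIs in members were at least 2-fold higher with telmisartan (2.02%) and 17 at least 2-fold lower (0.491%), with a median log2 ratio of −0.04. On the same genes, other macrophages gave 32 and 7. Each ratio below is of CPM, telmisartan over control. Without scaling for depth all ratios in members shift by −0.34 and the median becomes −0.37, and with median-of-ratios factors they shift by 0.11 and the median becomes 0.07, so a positive ratio smaller than the unscaled shift has the opposite sign there. This holds for the sums of the receptor and signal, sensor, MHC class I, cytokine, checkpoint ligand, cell death, monocyte, hypoxia and immediate-early lists, which lay between 0.05 and 0.25 by CPM and between −0.29 and −0.09 unscaled. For the MHC class I, checkpoint ligand, cell death and monocyte lists the median gene was below 0 while the sum was above it.

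The summed interferon targets were at 15150 CPM in control and 17615 CPM with telmisartan, a log2 ratio of 0.22, 0.19 to 0.25 that is −0.12 unscaled. Of 47 genes 2 were at least 2-fold higher, 0 lower and 35 above 0, with a median of 0.22, beside 1568 of the 3464 genes above 0 and their median of −0.04; in other macrophages 7 were at least 2-fold higher, 38 were above 0 and the median was 0.39. The 2 genes were *Ifi44* (51 and 142 UMIs in control and telmisartan, 1.33, 0.86 to 1.82) and *Ifi27l2a*, which encodes a small mitochondrial and nuclear envelope protein (326 and 762 CPM, 1.23, 1.05 to 1.41).

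The 5 markers did not share 1 ratio. *Rsad2* was at 937 CPM in control and 1569.9 CPM with telmisartan (0.74, 0.63 to 0.86), which the rule used. *Ifit1* was at 271 and 437 CPM (0.69, 0.48 to 0.90), and *Ifit3* at 315 and 439.7 CPM (0.48, 0.28 to 0.68). *Ifit2*, also of the rule, did not differ beyond counting error, at 402 and 401 CPM (0.00, −0.19 to 0.19). *Slfn4* was at 739 and 1349 CPM (0.87, 0.74 to 0.99), and its ratio in other macrophages was 1.55. *Isg15* was at 436 and 597 CPM (0.45, 0.28 to 0.63) with 1.06 in other macrophages. For *Slfn4* and *Isg15* the ratio was thus smaller among members, a class drawn by a threshold on related transcripts, than among the cells outside it. The difference was not tested.

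Of 16 receptor and signal genes none passed 2-fold in either direction. *Irf1*, an early interferon target, stood highest, at 239 CPM in control and 478 CPM with telmisartan (1.00, 0.78 to 1.22), with 0.49 in other macrophages. *Irf7* was at 249 and 276 CPM (0.15, −0.09 to 0.39), of opposite sign unscaled, against 1.00 in others. Of 8 sensor genes 1 was at least 2-fold lower with telmisartan. This was *Tmem173*, for the adaptor STING, at 97.4 and 45.3 CPM (105 and 54 UMIs, −1.10, −1.61 to −0.62), where other macrophages had −0.26. The RNA sensors *Ddx58* and *Ifih1* were at −0.02 and 0.30, the latter of opposite sign unscaled.

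**Figure D2:**
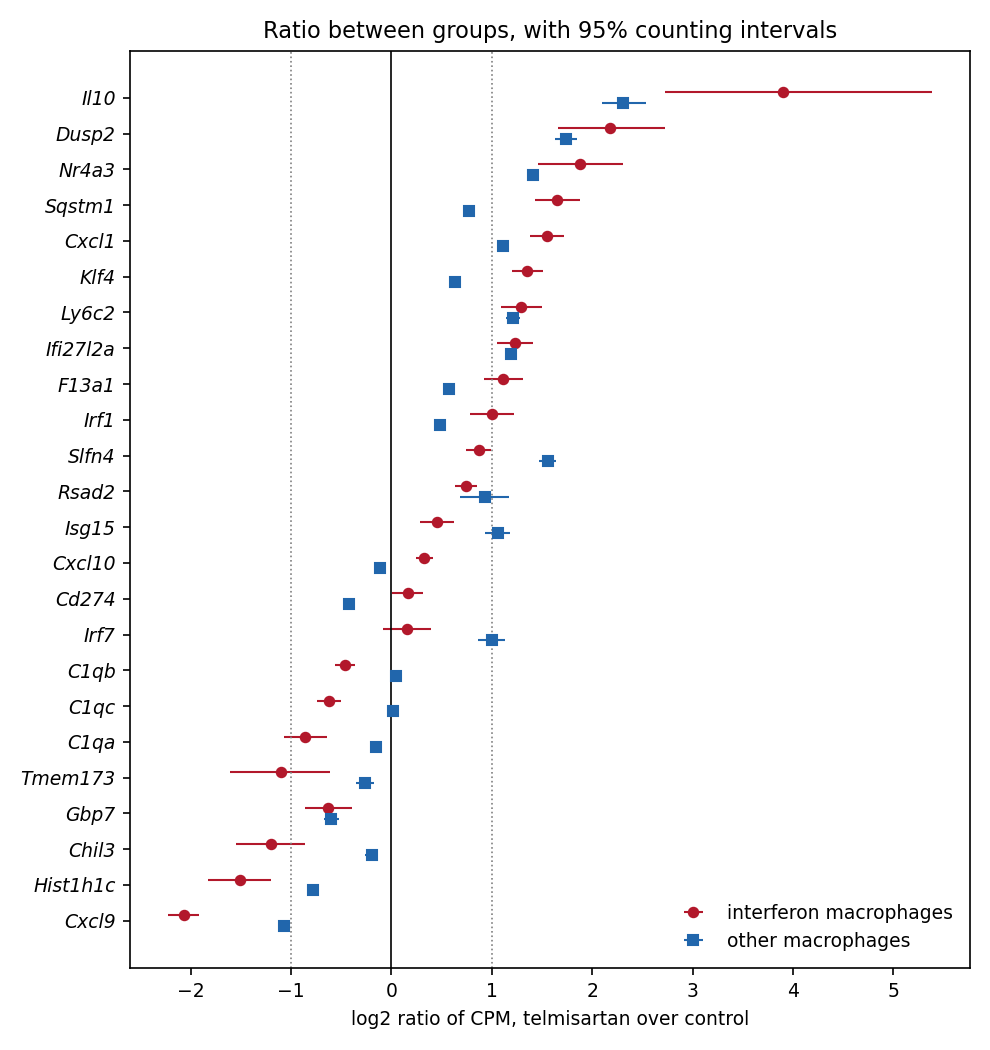
Log2 ratio of CPM, telmisartan over control, of 24 genes in members (circles) and other macrophages (squares), with bars for 95% counting intervals and dotted lines at 2-fold. *Cxcl9* lay at −2.07 in members and −1.07 in others, and *Dusp2* at 2.18 and 1.74, while *Irf7* lay at 0.15 in members and 1.00 in others.

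The interferon-gamma type genes were at a summed 4348 CPM in control and 2909.9 CPM with telmisartan (log2 ratio −0.58, −0.64 to −0.52). Most of this difference was *Cxcl9*: without it, an alternative chosen after seeing the data, the sums were 2730 and 2525 CPM (−0.11, −0.19 to −0.04), and in other macrophages the log2 ratio of sums went from −0.74 to −0.47. Of 15 genes 0 were at least 2-fold higher, 2 at least 2-fold lower and 5 above 0, with a median of −0.12 against −0.52 in other macrophages. *Cxcl9*, the most abundant, was at 1617 CPM in control and 385 CPM with telmisartan (1744 and 459 UMIs, −2.07, −2.22 to −1.92), with 12.1% of its UMIs in 1 cell. In other macrophages its ratio was −1.07. *Cxcl9* was seen in 47.8% of control members and 29.9% of telmisartan members, in 43.3% and 22.4% at 3000 UMIs per cell, and in 31.0% of control and 18.8% of telmisartan T cells. Thinned, the T cells had 23.1% (13.5 to 35.2) and 12.8% (6.32 to 22.3). The intervals of the thinned members were 34.3 to 52.7 in control and 16.2 to 29.6 with telmisartan. Each overlaps that of the T cells of its group, which does not show that the shares are equal. Neither the difference nor the source of the *Cxcl9* UMIs in T cells was tested. *Serpina3g*, a serine protease inhibitor gene, was the other at least 2-fold lower, at 100.2 and 32.7 CPM (−1.61, −2.18 to −1.07). The guanylate binding *Gbp2* did not follow, at 587 and 571 CPM (−0.04, −0.20 to 0.12), although its ratio in other macrophages was −0.60. *Irgm1* was higher with telmisartan, at 172 and 284 CPM (0.73, 0.47 to 1.00).

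All 6 MHC class II genes were below 0 (median −0.39, other macrophages −0.50) and none passed 2-fold, with *H2-Aa* at 3874 and 2909 CPM (−0.41, −0.48 to −0.35). For the 16 MHC class I genes the median was −0.01, with none past 2-fold. *H2-Q7* and its near copy *H2-Q6*, between which reads may be split, stood highest at 0.70 and 0.64.

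Of 16 chemokine genes 1 was at least 2-fold higher with telmisartan and 2 at least 2-fold lower, and 9 were above 0. *Cxcl1*, which draws neutrophils through CXCR2, was at 359 CPM in control and 1051 CPM with telmisartan (1.55, 1.38 to 1.72), and in other macrophages at 393 and 849 CPM. *Cxcl2*, of the same function and the most abundant chemokine gene of the members, was at 4249 and 6896 CPM (0.70, 0.65 to 0.75), with 0.20 in others. *Cxcl3* lay the other way, at 742 and 439.7 CPM (−0.75, −0.92 to −0.59). *Cxcl10* was at 1746 and 2190.0 CPM (0.33, 0.24 to 0.41), where other macrophages had −0.12, so its ratio parted from that of *Cxcl9*; unscaled its ratio is −0.01. The 2 lower genes rested on few cells: *Ccl17* on 12, with 44.0% of its 184 UMIs in 1 cell (−2.62), and *Ppbp* on 4, with 104 UMIs in control and 33 with telmisartan (−1.80), a ratio that is 3.30 without the cell that held the most of them, an alternative chosen after seeing the data.

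Of 9 cytokine genes 2 were at least 2-fold higher and 1 lower. *Il10*, an anti-inflammatory cytokine gene, had 6 UMIs in control and 99 with telmisartan (3.90, 2.73 to 5.38) in 19 cells, with 45.7% of the UMIs in 1 cell, and 2.31 in other macrophages. A UMI of it was seen in 2.24% of control and 8.56% of telmisartan members, and in 0 of 120 (up to 3.03%) and 5.59% at 3000 UMIs, beside 90 of 3605 control and 199 of 3203 telmisartan other macrophages, unthinned. T cells, with 13.8%, or 12.6% thinned, can express *Il10* themselves and so do not measure its background, which was not measured here. *Tnf* was at 175 and 351 CPM (1.00, 0.75 to 1.26), with 0.42 in other macrophages. *Il6* was the lower gene, at 87 and 45 UMIs (−1.10, −1.65 to −0.56), on 35 cells. *Il1b* was at 3279 and 3826 CPM (0.22, 0.16 to 0.29), a ratio of opposite sign unscaled. Of 6 checkpoint ligand genes none passed 2-fold. *Cd274* was at 578 and 647 CPM (0.16, 0.01 to 0.32), of opposite sign unscaled, where in other macrophages it was lower with telmisartan (−0.42). Of 7 cell death genes *Bcl2l11*, which encodes the apoptosis inducer BIM, was the 1 at least 2-fold higher (98.3 and 205 CPM, 1.06, 0.72 to 1.40; others 0.89), and none was lower.

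Monocyte genes parted in both directions, with 2 of 7 at least 2-fold higher and 1 lower. *Ly6c2* was at 258 CPM in control and 632 CPM with telmisartan (1.29, 1.09 to 1.50), with 1.21 in other macrophages. *F13a1*, for a coagulation factor subunit, was at 281 and 608 CPM (log2 ratio between 0.92 and 1.31), with 0.57 in others. *Chil3*, for a chitinase-like protein, was at 207 and 89.8 CPM (−1.20, −1.55 to −0.87), with −0.20 in others and 15.2% of its UMIs in 1 cell. None of 17 tumor macrophage genes passed 2-fold, and 5 were above 0. *C1qa*, *C1qb* and *C1qc*, whose products form the first complement component, were all lower with telmisartan in members, also with each scaling tried. *C1qa* was at 435 and 240.0 CPM (−0.86, −1.08 to −0.64), with −0.16 in other macrophages. A UMI of it was seen in 53.7% of control and 40.1% of telmisartan members, or 48 of 120 (31.2% to 49.3%) and 30.4% (23.4 to 38.2) thinned, and in 35.7% and 25.9% of T cells, or 30.8% (19.9 to 43.4) and 17.9% (10.2 to 28.3) thinned. T cells should lack it, and background was not separated here from doublets, which were not removed. The share was lower in the telmisartan T cells, though the intervals overlap. How much of the ratio in members comes from such UMIs was not tested. *C1qb* was at 1743 and 1261 CPM (−0.47, −0.57 to −0.37), with 0.04 in others. *C1qc* was at 1238 and 804 CPM (−0.62, −0.74 to −0.50), with 0.01 in others. *Apoe*, for the lipid carrier apolipoprotein E, was at 1109 and 1288 CPM in members (0.22, 0.11 to 0.33; −0.12 unscaled), whereas in other macrophages it was at 775 and 1903 CPM (1.30). *Spp1* was at 2398 and 1715 CPM (−0.48, −0.57 to −0.40), with −0.71 in others. Whether these differences between members and other macrophages exceed the spread between mice was not tested.

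The 10 largest ratios above 0 among genes with at least 200 UMIs were led by *Dusp2*, which encodes a phosphatase of MAP kinases, at 34.3 CPM in control and 155 CPM with telmisartan (2.18, 1.66 to 2.73; others 1.74). *Nr4a3*, for a nuclear receptor of the immediate-early response, was at 56.6 and 207 CPM (1.87, 1.46 to 2.30; others 1.41). *Sqstm1*, for the autophagy receptor p62, was at 198 and 623 CPM (1.65, 1.43 to 1.88; others 0.77). *Tob2* (1.63), *Cxcl1*, the transcription factor gene *Klf4* (1.35), *Ly6c2*, the scavenger receptor gene *Cd36* (1.27), the histone demethylase gene *Kdm6b* (1.25) and *Ifi27l2a* followed. In other macrophages *Tob2*, *Klf4*, *Cd36* and *Kdm6b* were at 1.05, 0.63, 0.61 and 1.32, so all 10 genes were above 0 in both classes. The 10 largest below 0 were led by *Cxcl9*. The linker histone gene *Hist1h1c* was at 284 and 99.8 CPM (−1.51, −1.82 to −1.20; others −0.79). The junction adhesion gene *Jaml* was at 137 and 48.7 CPM (−1.50, −1.96 to −1.05; others −0.50). *Mgl2* (−1.21), *Chil3*, *Tnfrsf9* (−1.13), *March1* (−0.97), *C3* (−0.86), *C1qa* and *Rap2c* (−0.81) followed, and in other macrophages all 10 were below 0 as well.

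Of 11 hypoxia genes none passed 2-fold, and 9 were above 0 (median 0.24), with a sum that is of opposite sign unscaled (0.25 and −0.09). Of 14 immediate-early and heat shock genes *Egr1* was the 1 at least 2-fold higher (396 and 798 CPM, 1.01, 0.84 to 1.18). The summed mitosis genes were at 184 and 169 CPM, with an interval of the log2 ratio across 0 (−0.12, −0.41 to 0.17). Of the DNA replication genes only *Pcna* had enough UMIs to be compared (0.13, −0.19 to 0.46), and the sum of the list was at −0.03, or 0.02 with TMM factors.

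The members were not uniform. Clustered on their own (Seurat, resolution 0.3) they fell into 2 groups, of 243 cells (103 control, 140 telmisartan) and 78 cells (31 control, 47 telmisartan); resolution 0.2 left 1 cluster and 0.5 gave 3. The median sum of the rule genes was 8 UMIs in both, and the 5 markers summed to 3637 and 3418 CPM. The interferon targets outside the rule summed to 17458 CPM in the large and 12915 CPM in the small cluster. The 78-cell cluster was led by *Serpinb2*, *Cxcl3*, *Npy*, *Mmp8*, *Il6*, *Hmox1*, *Ppbp*, *Cav1*, *Pmp22* and *Gadd45a*. *Hmox1*, the stress-induced heme oxygenase gene, was at 272 CPM in the large and 2901 CPM in the small cluster. The hypoxia list summed to 4450.3 CPM in the large and 11364 CPM in the small cluster, and the chemokine list to 14243 and 29899.8 CPM. The neutrophil markers, of which *Mmp8* is 1, moved with these lists, at 57.8 CPM in the large and 436 CPM in the small cluster. So did the endothelial markers (23.8 and 63.1 CPM). Markers higher in the large cluster were those of plasmacytoid dendritic cells (196 and 116 CPM) and NK cells (57.8 and 29.6 CPM). Those of tumor epithelial cells (35.2 and 5.92 CPM) and fibroblasts (19.3 and 11.8 CPM) were higher there too. The median mitochondrial share also differed, at 7.32% and 4.16%, as did the summed mitosis genes, at 216 and 37.5 CPM. The large cluster was led by *Ch25h*, *Ifit1bl1*, *Pclaf*, *Gatm*, *Klrb1b*, *Ccl17*, *Idi1*, *Grap2*, *Snrpa1* and *Apex1*. The list of MHC class II genes summed to 18985 CPM there against 4854 CPM, the dendritic cell markers to 61.8 against 15.8 CPM, and *C1qb* stood at 1812 against 369 CPM. These genes describe the clusters, since they formed them. *Ifit3* was at 462 CPM in the large and 96.7 CPM in the small cluster, whereas *Rsad2* was at 1197 and 1521 CPM. The rule takes a sum that includes both genes, so a cell can enter by 1 of them. Nothing is read from these proportions.

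The members were also split by the genes of like classes. A *Cxcl9* condition (at least 3 UMIs and 5 per 10000) was met by 74 members, 43 in control (32.1%) and 31 with telmisartan (16.6%). The same condition on *Ly6c2* and *Plac8* together was met by 129 members, 47 in control (35.1%) and 82 with telmisartan (43.9%). Both were met by 22 members and neither by 140. The interferon targets summed to 21967 CPM in members with the *Ly6c2* and *Plac8* condition, against 15428 CPM in those with *Cxcl9* and 13937 CPM in those with neither. *Slfn4* stood at 2137 CPM in members with the *Ly6c2* and *Plac8* condition and at 628 CPM in those with neither.

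The ratio between the groups was then taken within these divisions, which were chosen after values had been seen. Among members with the *Ly6c2* and *Plac8* condition the interferon list was at 22599 CPM in control and 21574 CPM with telmisartan (−0.07, −0.11 to −0.02). Among the rest it was at 12483 and 15143 CPM (0.28, 0.24 to 0.32). Unscaled, an alternative chosen after seeing the data, both ratios are below 0, at −0.18 and −0.11, so the sign differs between the divisions by CPM alone, and the difference was not tested. *C1qa* was lower with telmisartan in both, at −1.15, −1.65 to −0.64 with the condition and −0.66, −0.90 to −0.42 without it. *Cxcl9* was lower in both as well (−0.98, −1.28 to −0.68 and −2.31, −2.50 to −2.13). Within the members that met the *Cxcl9* condition, *Slfn4* was at 269 CPM in control and 1434 CPM with telmisartan (2.41, 2.10 to 2.74). *Cxcl10* there was at 1977 and 4134 CPM (1.06, 0.92 to 1.20), and *C1qa* at 543 and 148 CPM (−1.87, −2.47 to −1.32). These were 43 control and 31 telmisartan cells. In the members without that condition *Slfn4* was at 0.36, 0.22 to 0.49, *Cxcl10* at 0.16, 0.05 to 0.28 (−0.03 unscaled, an alternative chosen after seeing the data) and *C1qa* at −0.50, −0.76 to −0.24. *Apoe* was at −0.09, −0.32 to 0.14 with the *Cxcl9* condition and 0.33, 0.20 to 0.46 without it. With the *Ly6c2* and *Plac8* condition *Apoe* was at 1.10, 0.80 to 1.41, *Slfn4* at 0.16, 0.01 to 0.31 and *Cxcl10* at −0.08, −0.23 to 0.07. Among members that did not meet it *Apoe* was at 0.19, 0.06 to 0.31 (−0.20 unscaled, an alternative chosen after seeing the data). There *Slfn4* was at 1.46, 1.24 to 1.69 and *Cxcl10* at 0.52, 0.41 to 0.62. These genes were picked with values seen, and the differences were not tested.

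**Figure D3:**
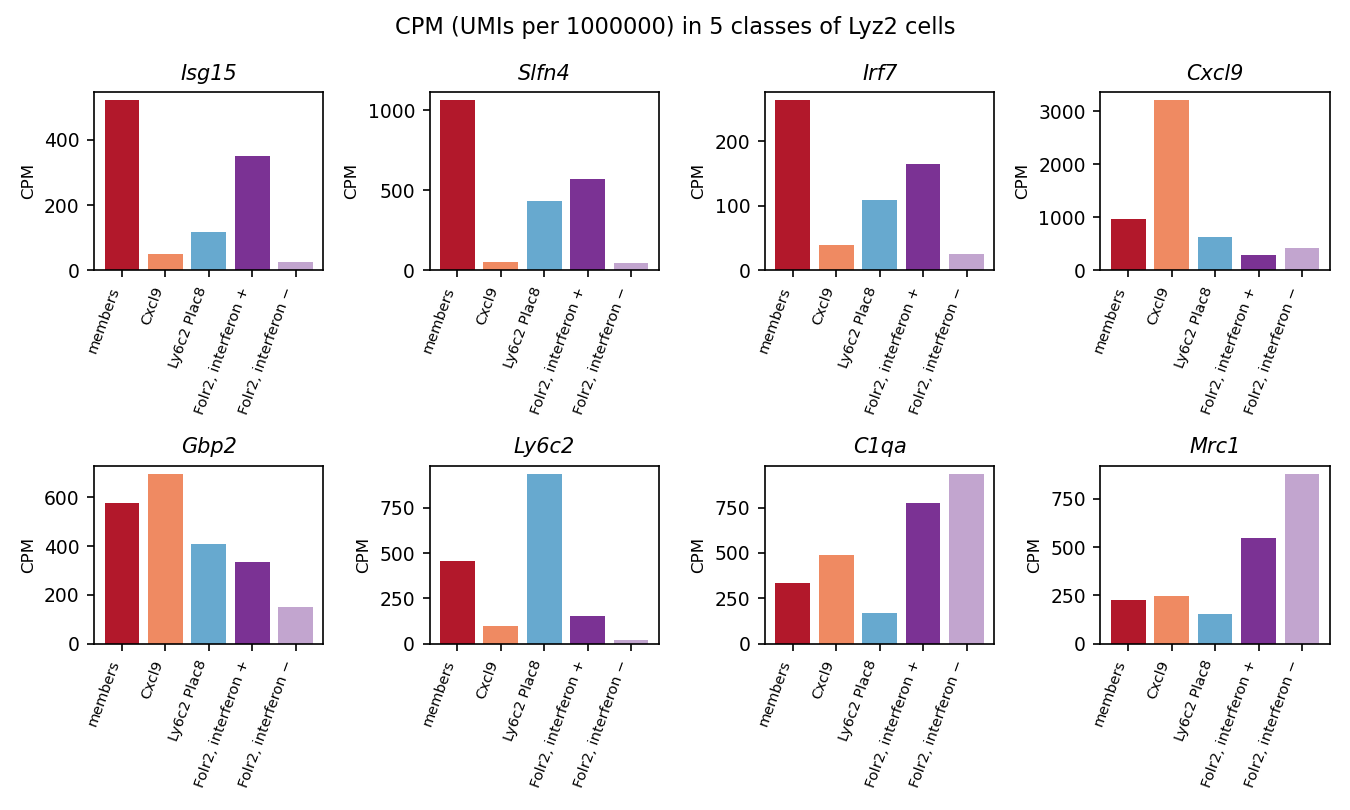
CPM of 8 genes in members, *Cxcl9* macrophages, *Ly6c2* *Plac8* cells, and *Folr2* macrophages that do (+) or do not (−) meet the interferon condition; bars are summed over both groups and start at 0. *Isg15* was at 521 CPM in members and 350.0 CPM in *Folr2* macrophages with the condition, and at most 117 CPM in the other classes. Those other classes hold no cell that met the condition.

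The members were set beside 3 like classes, without a measure of distance: the *Cxcl9* macrophages (1271 cells, 865 control and 406 telmisartan) and the *Ly6c2* *Plac8* cells (844 cells, 319 and 525), both drawn from other macrophages by the conditions just given, and *Folr2* macrophages, which carry at least 3 UMIs of *Cbr2*, *Folr2* and *Fcrls* and were kept out of the members. Other kinds of macrophages were not compared here. The *Cxcl9* macrophages and *Ly6c2* *Plac8* cells hold no cell that met the interferon condition. Low levels of interferon targets in them thus follow in part from how they were drawn. *Isg15* was at 521 CPM in members, 51.1 CPM in *Cxcl9* macrophages and 117 CPM in *Ly6c2* *Plac8* cells. *Irf7* was at 263, 38.5 and 109 CPM in the same order. *Gbp2* and *H2-Aa* were highest in *Cxcl9* macrophages, with 578, 696 and 408 CPM of *Gbp2* and 3367, 4908 and 3246 CPM of *H2-Aa*, again in that order. *Cxcl10* was higher in members than in *Cxcl9* macrophages (1979 and 1058 CPM). *Ly6c2* was at 454 CPM in members, 936 CPM in *Ly6c2* *Plac8* cells, which were drawn by it, and 99.3 CPM in *Cxcl9* macrophages. *C1qa* was at 333 CPM in members, 168 CPM in *Ly6c2* *Plac8* cells and 489 CPM in *Cxcl9* macrophages.

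The interferon condition was also met outside the members, by 31 of 1046 *Folr2* macrophages (13 control, 18 telmisartan). In these 31 cells *Isg15*, which the condition did not use, was at 350.0 CPM, while the 1015 without the condition had 25.8 CPM. *C1qa* was at 777 CPM in the 31 cells, 935 CPM in the 1015 and 333 CPM in members, and *Mrc1*, the mannose receptor gene, at 549, 879 and 225 CPM, so both genes lay between the other *Folr2* macrophages and the members.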

How the data were processed

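UMIs were counted by the authors with the BD Rhapsody WTA Analysis Pipeline 1.11 on GRCm38 with GENCODE M19, and the deposited gene and Sample Tag tables hold raw counts, of UMIs and of tag reads. The tables held 20726 cells, 27031 genes, 107214449 UMIs and 8041345 tag reads, of which 0.0794% lay on tags not used in the study. The members and gene lists were chosen with earlier results of these data known. For each class of cells in each group, UMIs were added up per gene and scaled to CPM. Genes needed 100 UMIs over both sets compared, and a set at 0 was given a floor of 3 counts. Named genes were those of the lists, markers and rule, the 15 largest and 10 smallest ratios against other macrophages and the 10 largest in each direction with telmisartan (at least 200 UMIs), the 10 leading genes of each cluster and the 10 most abundant genes. Each group is 1 pool, so no test was made. Doublets were not removed: the automatic Scrublet threshold marked 0 cells, while 8.67% of cells were split between tags, which predicts 9.51% doublets within a tag. Removing the 942 cells with the highest scores was an alternative, as were other filters, rules, scalings and resolutions. Members were clustered on 2000 variable genes and 30 principal components. Some genes of the lists are counted in list values but not reported by name here. The ratio code was tested on simulated data. Software was Python 3.11.15 (numpy 2.4.6, scipy 1.17.1, pandas 2.3.3, scanpy 1.11.5, matplotlib 3.10.9) and R 4.3.3 (Seurat 5.3.0; edgeR 4.0.16 and DESeq2 1.42.0 for scaling factors only).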

Additional observations from a re-analysis of the deposited data

Results flagged for a closer look

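*Il6* had a log2 ratio, telmisartan over control, of −1.10 in members and 1.12 in other macrophages, so the pools stood in opposite order in the 2 classes; this difference was not tested. *Retnla* had a ratio of −5.67 in members, where the telmisartan-treated group was at 0 and the floor of 3 counts was used, and 1.50 in other macrophages. All *Retnla* UMIs of members were in 1 control cell, and this difference was not tested. Outside the groups, 31 of 800 *Lyz2* macrophages without a tag call met the gene conditions of the members (3.88%), with *Rsad2* at 1271 CPM and the interferon list at a summed 12719.5 CPM.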

How the results depend on the processing

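The ratio of shares lay between 1.47 and 1.71 under all alternatives run. The share in control and telmisartan was 1.87% and 3.09% (200 members) with at least 5 UMIs and 10 per 10000, 4.19% and 6.75% with at least 2 UMIs and 3 per 10000, and 2.35% and 3.52% (210 members) with cells thinned before the rule. The telmisartan share was 4.07% with at least 10 *Lyz2* UMIs and 3.87% of all cells within the limits. The summed interferon list in members against others had a log2 ratio of 1.81 with a tag share of at least 90%, 1.84 with at most 10% mitochondrial UMIs, 1.89 without high Scrublet scores, 1.98 under the stricter and 1.67 under the looser interferon condition, 1.76 without mitochondrial and ribosomal genes in the totals, 1.77 as a mean over cells and 1.46 unscaled. Genes at least 2-fold higher and lower in members numbered 228 and 1275 unscaled, where 15.2% of such genes were higher against 41.1% by CPM; 2619 were higher with at least 1 UMI in each set (77.3%), 230 and 184 passed with at least 500 UMIs, and 370 were lower under the looser condition. Between groups, the summed interferon list was at 0.18 under the stricter condition, 0.27 with TMM factors, 0.33 with median-of-ratios factors and −0.12 unscaled. Genes at least 2-fold higher and lower with telmisartan numbered 15 and 109 unscaled (12.1% higher against 80.5% by CPM), 28 and 9 in thinned cells, 880 and 1063 with at least 1 UMI (45.3%), and 17 and 2 with at least 500 UMIs, and 40 were higher under the stricter condition. Interferon list genes among them numbered 1 under the stricter condition, 1 in thinned cells, 1 with at least 500 UMIs and 0 unscaled. Unscaled, the median of all genes was −0.37 between groups and −0.47 in members against others; unequal depth enters that setting by construction. Resolution 0.2 gave 1 cluster. Of named genes at least 2-fold apart, the ratio of members to others changed sign for *Col3a1* (−0.52 with at most 10% mitochondrial UMIs, −0.068 without high Scrublet scores), *S100a9* (−0.88 without high Scrublet scores), *Ccl22* and *Fscn1* (0.40 and 2.11 under the looser condition) and *Retnla* (−0.69 with at least 10 *Lyz2* UMIs, set by the floor of 3 counts since members held 0). *Ppbp* between groups was at 3.30 without the cell with the most UMIs of it, an alternative chosen after seeing the data, as was the unscaled ratio of the interferon list among members without the *Ly6c2* and *Plac8* condition (−0.11) and that of *Cxcl10* among members without the *Cxcl9* condition (−0.025). Named genes under 2-fold that changed sign unscaled numbered 64 of 328 in members against others and 69 of 234 between groups, and 41 and 66 changed sign under at least 1 other alternative. The cause was not tested. Of other values for named genes, divisions and the interferon-gamma list, 6982 moved within their counting interval and 1231 beyond it with no value at least 2-fold apart changing sign. No paired analysis was possible because each group is 1 pool.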
